A study of Saccharomyces cerevisiae with 6 samples.

Results

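The subject is the set of genes that encode the subunits of the 3 nuclear RNA polymerases of the budding yeast Saccharomyces cerevisiae. They were chosen by name, as all genes called RPA, RPB, RPC or RPO followed by a number, together with RET1. The rule found 32 of the 4073 named genes on the arrays. Of these, 7 encode subunits of RNA polymerase I only, 7 of polymerase II only and 10 of polymerase III only, while 2 serve polymerases I and III and 5 serve all 3 enzymes. The remaining gene, RPO41, is caught by the rule but encodes the single-chain RNA polymerase of mitochondria, and it is described apart from the 31 nuclear genes.

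RNA was compared on 6 Agilent arrays of 2 dyes, 3 of BY4741, called wild type here, and 3 of an rpd3Δ strain in the same background, which lacks the histone deacetylase Rpd3. On each array, cells held at 39 °C for 20 minutes were set against cells of the same strain at 25 °C, all from cultures in mid-log phase in YPD medium; both strains also lack the marker genes HIS3, LEU2, MET17 and URA3 that BY4741 carries as deletions. The arrays of a strain are labelled as biological replicates from independent cultures. The values are log2 ratios, read here as heated over control, so that a value of -1 is a fall to a level 2-fold lower. The direction is likely rather than stated: with it, 4 heat shock genes, HSP12, HSP26, HSP104 and SSA4, lay between 3.65 and 8.75 on all 6 arrays.

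The control was in Cy5 and the heated sample in Cy3 on every array, so heat cannot be told apart from dye in either strain, whereas any dye bias that the 6 arrays share drops out of the strain difference. A ratio is relative to the other RNA of the culture, and a change in every cell cannot be told apart from a larger one in some cells. The correlation of 2 arrays across genes was 0.952 to 0.980 within wild type and 0.851 to 0.956 within the mutant. The targeted gene RPD3 gives only a weak check, since neither channel of a mutant array should hold its RNA. RPD3 lay at 0.22 ± 0.034 on wild-type arrays (SD, n = 3) and at -0.073 ± 0.040 on mutant arrays, beside medians of 0.06 to 0.25 and of -0.12 to -0.08 for the deleted marker genes. Each member had 7 spots per array, which were averaged. "Rose" and "fell" are used of genes with an adjusted p under 0.05 in limma, fitted on all 4073 genes.

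Polymerase I transcribes the large ribosomal RNA precursor, polymerase II the messenger RNAs, and polymerase III the transfer RNAs and the 5S ribosomal RNA. All are built on the same plan: a largest and a second largest subunit form the active centre, a pair of smaller subunits forms the platform on which these assemble, a stalk of a pair of subunits reaches out of the core, and a small zinc-ribbon subunit takes part in RNA cleavage. In growing yeast most transcription serves ribosome production, and genes for making ribosomes are known to be repressed for a time when cells are stressed.

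In wild type, subunit genes of polymerases I and III fell, most strongly the large subunits of polymerase I. The catalytic subunit genes of polymerase II did not pass the test. Of the 32 members, 27 fell and 1, RPO41, rose, where 36.3% of all genes fell and 29.7% rose. By enzyme, 6 of 7 genes of polymerase I only fell, 10 of 10 of polymerase III only, both of those shared by I and III, all 5 of those shared by all 3, and 4 of 7 of polymerase II only. The median ratio was -1.25 for polymerase I only, -0.91 for polymerase III only, -1.30 for those shared by I and III, -0.77 for those shared by all 3 and -0.29 for polymerase II only, against -0.05 for all genes. A fall of at least 2-fold was called for 13 members and for 12% of all genes: 5 of polymerase I only, 4 of polymerase III only, 2 shared by I and III, 2 shared by all 3 and 0 of polymerase II only, of which 4 of 7 passed the test with smaller falls.

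In the rpd3 deletion the ratio was called higher than in wild type for 5 of 7 genes of polymerase I only and 7 of 10 of polymerase III only, and lower for 2 of 7 of polymerase II only, RPO21 and RPB7. There, 17 members fell and 2 rose, where 31.9% of all genes fell and 33.7% rose. The medians were -0.53 for polymerase I only, -0.19 for polymerase III only, -0.29 for those shared by I and III, -0.82 for those shared by all 3 and -0.16 for polymerase II only, with 0.00 for all genes. A fall of at least 2-fold was called for 4 members, RPA190, RPA135, RPB8 and RPB11, and for 9.16% of all genes. Of the members, 15 fell in both strains, where 21% of all genes did so, and 11 fell in wild type with no call in the mutant, where 10.3% did so. The strain difference, which is the mutant ratio minus the wild-type ratio, was higher for 17 members and lower for 2, where 24.8% and 21% of all genes were called. The 17 were 5 genes of polymerase I only, 7 of polymerase III only, both shared by I and III, 2 shared by all 3 and 1 of polymerase II only, and the 2 lower ones were both of polymerase II only. All 17 had fallen in wild type, a combination found for 15.9% of all genes. The same wild-type arrays enter the fall and the difference, so these calls are not independent. Among genes that fell in wild type, the difference was higher for 647 of 1477 over all genes and for 17 of 27 members. For 8 of the 17 the difference was at least 2-fold, as for 7.27% of all genes. Since each ratio has its own strain's control, a strain difference can lie in the control level, in the heated level or in both, and the arrays do not separate these.

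**Figure D1:**
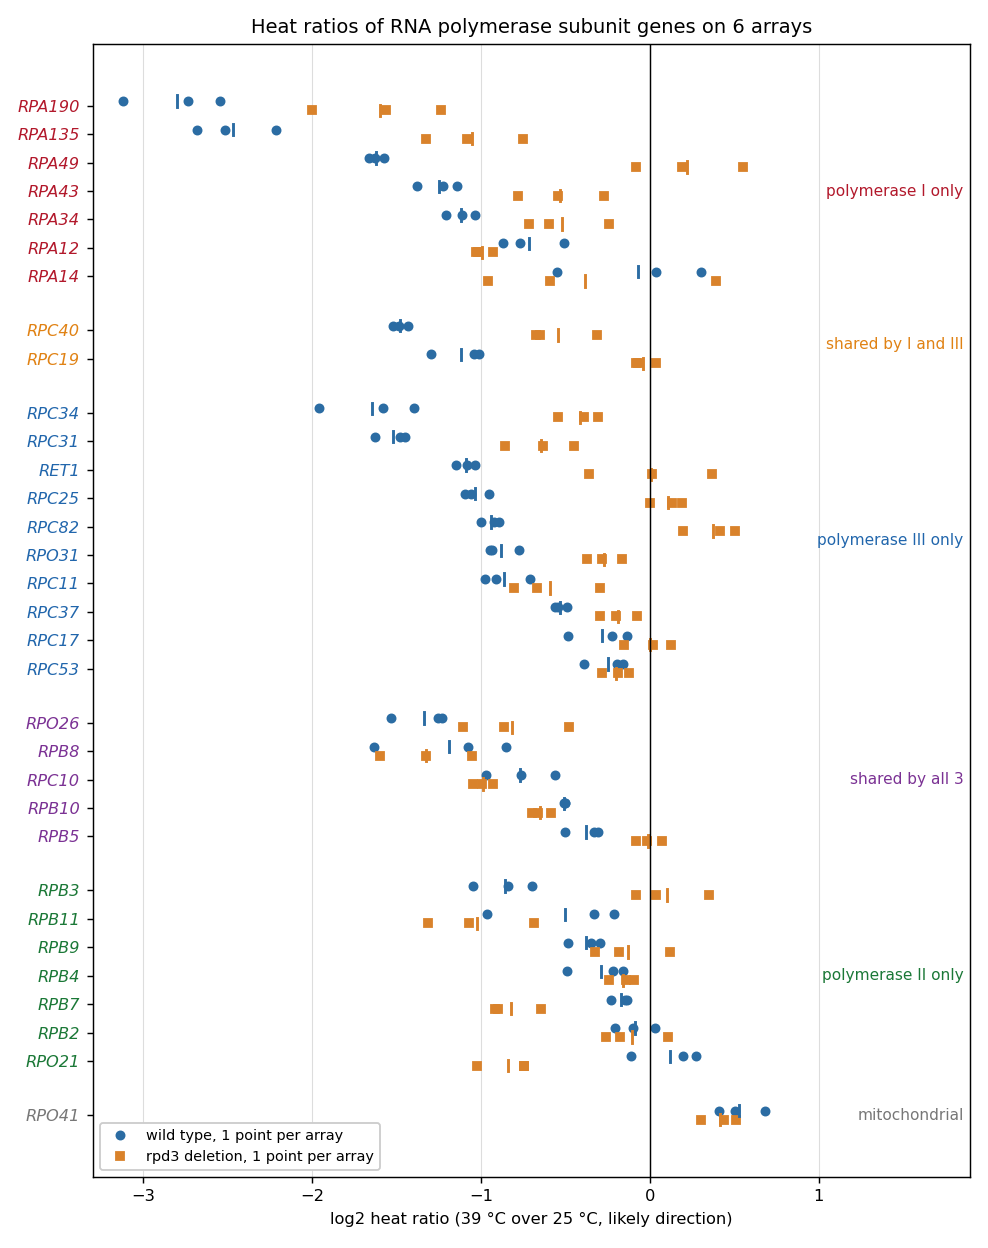
Log2 heat ratio of each member on each of the 6 arrays, grouped by the enzyme the subunit belongs to; circles are wild-type arrays, squares rpd3 deletion arrays and vertical ticks the means of 3 arrays. In wild type RPA190 and RPA135 lie farthest to the left, and RPO21 and RPB7 are the polymerase II genes whose mutant arrays lie to the left of all wild-type arrays by the most.

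In wild type the genes of the catalytic pair of polymerase I gave the lowest ratios of the set. RPA190, the largest subunit, had ratios of -2.74, -2.54 and -3.12 on wild-type arrays 1 to 3 and of -1.56, -1.999 and -1.24 on mutant arrays 1 to 3. All mutant arrays lay above all wild-type arrays, and all 6 were below 0. In wild type this was a fall to a level 6.97-fold lower (-2.80 ± 0.29, SD, n = 3; limma adjusted p = 1.34e-05), the 14th lowest mean of the 4073 genes, and in the mutant a 3.03-fold fall (-1.60 ± 0.38, adjusted p = 0.000109). The strain difference was 1.20 ± 0.22 (SE, adjusted p = 0.00533). RPA135, the second largest subunit, had ratios of -2.51, -2.21 and -2.68 in wild type against -1.08, -1.33 and -0.75 in the mutant. The strains again did not overlap. It fell 5.54-fold in wild type and 2.08-fold in the mutant, with a difference of 1.42 ± 0.18 (adjusted p = 0.00146).

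RPA49 and RPA34 form a dimer at the rim of polymerase I that resembles the polymerase II factor TFIIF. RPA49 had ratios of -1.63, -1.57 and -1.66 in wild type against 0.19, -0.08 and 0.55 in the mutant. It fell 3.08-fold in wild type, while its mutant arrays lay on both sides of 0 and did not pass the test (0.22 ± 0.32, SD, adjusted p = 0.128); without mutant array 2 it rose there (0.37, adjusted p = 0.0161). Its strain difference, 1.84 ± 0.16 (SE, adjusted p = 0.000629), was the largest of the 32 members and the 33rd highest of all genes. Its partner RPA34 had ratios of -1.11, -1.21 and -1.04 in wild type against -0.60, -0.72 and -0.24 in the mutant, a difference of 0.60 ± 0.14 (adjusted p = 0.0132). The value of RPA34 in the mutant depends on a few of its 7 spots: their range was -1.57 to 1.47, -1.10 to 1.36 and -1.30 to 1.47 on mutant arrays 1 to 3, against -1.28 to -1.01, -1.28 to -1.12 and -1.13 to -0.92 in wild type. With the median spot in place of the mean, the difference of RPA34 was 0.38 (adjusted p = 0.118), and it also missed the threshold without wild-type array 1 (0.60, adjusted p = 0.0506) or 2 (0.56, adjusted p = 0.0543).

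The remaining polymerase I genes divided. RPA43, the larger stalk subunit, which recruits the initiation factor Rrn3, lies beside RPA190 on the chromosome and is transcribed away from it, the only pair of members that are neighbours in the RefSeq gene table. It had ratios of -1.14, -1.38 and -1.23 in wild type against -0.54, -0.78 and -0.27 in the mutant, so that it moved in the same directions as RPA190 by a smaller amount (strain difference 0.72 ± 0.15, SE, adjusted p = 0.00807). RPA12, the zinc-ribbon subunit, had -0.77, -0.51 and -0.87 in wild type against -1.02, -0.93 and -1.03 in the mutant. It fell in both strains, 1.64-fold and 1.99-fold, and its mutant arrays lay below its wild-type arrays, the opposite order to the genes above. The RPA12 difference of -0.28 ± 0.12 did not pass the test (adjusted p = 0.0994) and depended on the processing. With quantile normalization it was -0.44 (adjusted p = 0.021). With arrays centred on the deleted marker genes it was -0.04 (adjusted p = 0.83), and with a trend with gene length removed 0.03 (adjusted p = 0.83). RPA14, the smaller stalk subunit, had ratios of 0.04, 0.31 and -0.55 in wild type against -0.59, 0.39 and -0.96 in the mutant. Its arrays overlapped and spread on both sides of 0 in each strain, and the 95% interval of its strain difference ran from -1.16 to 0.53. Without mutant array 2, its highest array, RPA14 fell in the mutant (-0.77, adjusted p = 0.00718) and its difference was -0.70 (adjusted p = 0.0386).

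RPC40 and RPC19, the assembly platform that polymerases I and III share, behaved alike in direction. RPC40 had ratios of -1.52, -1.49 and -1.43 in wild type against -0.65, -0.67 and -0.31 in the mutant. It fell in both strains, 2.79-fold and 1.46-fold, with a strain difference of 0.94 ± 0.13 (SE, adjusted p = 0.00163). RPC19 had ratios of -1.01, -1.04 and -1.29 in wild type against -0.07, 0.04 and -0.08 in the mutant. Its 2.17-fold fall in wild type had no called counterpart in the mutant (-0.04 ± 0.066, SD, adjusted p = 0.705), and the difference was 1.08 ± 0.12 (SE, adjusted p = 0.000815). For both genes the groups did not overlap.

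Polymerase III carries RPC82, RPC34 and RPC31, a trimer that binds the initiation factor TFIIIB and has no subunit counterpart in the other enzymes. RPC34 had ratios of -1.40, -1.58 and -1.96 in wild type against -0.54, -0.30 and -0.39 in the mutant, and its 3.13-fold fall in wild type was the strongest of the polymerase III genes. RPC31 followed with -1.48, -1.45 and -1.63 in wild type against -0.63, -0.86 and -0.45 in the mutant. Both also fell in the mutant, though RPC34 only 1.33-fold, a call that was lost without mutant array 1 (-0.35, adjusted p = 0.0976). RPC82 had -0.92, -0.9997 and -0.89 in wild type against 0.42, 0.20 and 0.51 in the mutant. It fell 1.92-fold in wild type and rose 1.30-fold in the mutant (adjusted p = 0.00489), the only nuclear subunit gene called in opposite directions. The strain differences were 1.23 ± 0.16 for RPC34 (SE, adjusted p = 0.00151), 0.88 ± 0.13 for RPC31 (0.00249) and 1.31 ± 0.11 for RPC82 (0.000617).

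The catalytic pair of polymerase III moved less than that of polymerase I. RPO31, the largest subunit, had ratios of -0.95, -0.77 and -0.93 in wild type against -0.28, -0.37 and -0.16 in the mutant, and the groups did not overlap. Its fall in the mutant was small (-0.27 ± 0.10, SD, adjusted p = 0.0158) and missed the threshold without mutant array 1 (-0.27, adjusted p = 0.0926) or 2 (-0.22, adjusted p = 0.0675). Centring each array on the deleted marker genes gave -0.18 (adjusted p = 0.128). RET1, the second largest subunit, had -1.15, -1.08 and -1.03 in wild type against 0.01, -0.36 and 0.37 in the mutant. Its mutant arrays spread on both sides of 0, all above wild type, for a difference of 1.09 ± 0.18 (SE, adjusted p = 0.00343). RPC25, the larger stalk subunit, had -0.95, -1.06 and -1.10 in wild type against 0.13, 0.00 and 0.19 in the mutant. It differed by 1.14 ± 0.10 (adjusted p = 0.000629), with no called change in the mutant.

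The remaining polymerase III genes had strain differences of 0.05 to 0.34. RPC37 and RPC53, the polymerase III dimer that resembles TFIIF and acts in termination, had wild-type means of -0.53 ± 0.036 and -0.25 ± 0.12 (SD, n = 3), and neither passed the test in the mutant (-0.19 ± 0.11, adjusted p = 0.0515, and -0.20 ± 0.081, adjusted p = 0.0557). Both lay near the threshold there: with quantile normalization RPC37 (-0.22, adjusted p = 0.021) and RPC53 (-0.23, adjusted p = 0.0225) fell, as they did with arrays centred on their median (adjusted p = 0.0444 and 0.0449). RPC37 also fell there without mutant array 3 (-0.25, adjusted p = 0.0436). The strain difference of RPC37 was 0.34 ± 0.10 (SE, adjusted p = 0.0296). It missed the threshold without any of wild-type arrays 1 (adjusted p = 0.0712), 2 (0.0848) and 3 (0.0689) or mutant arrays 1 (0.106) and 3 (0.0834). RPC53, the smaller stalk gene RPC17 and the zinc-ribbon gene RPC11 had differences of 0.05, 0.28 and 0.28, none of them called, with arrays that overlapped between the strains. With arrays centred on the deleted marker genes, RPC17 (0.52, adjusted p = 0.0158) and RPC11 (0.52, adjusted p = 0.0419) were called higher in the mutant. Removing a trend with gene length also gave calls for RPC17 (0.50, adjusted p = 0.0271) and RPC11 (0.63, adjusted p = 0.0423). The 7 spots of RPC53 and RPC17 differed by an SD of 0.24 and 0.29 on average over the arrays, and they disagreed most on mutant arrays. The median spots of RPC53 were -0.033, -0.24 and 0.070 on mutant arrays 1 to 3, so its mutant mean depends on a few spots. RPC11, which carries the RNA cleavage activity of polymerase III, fell in both strains (-0.87 ± 0.14 and -0.59 ± 0.26), its fall in the mutant being lost once a trend with gene length was removed (-0.14, adjusted p = 0.433). The wild-type fall of RPC53 missed the threshold without wild-type array 2 (-0.18, adjusted p = 0.138) or 3 (-0.27, 0.0526) and without mutant array 1 (-0.25, 0.0515). That of RPC17 (-0.28 ± 0.18, SD) missed it without wild-type array 2 (-0.18, adjusted p = 0.178) or 3 (-0.31, 0.0667).

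**Figure D2:**
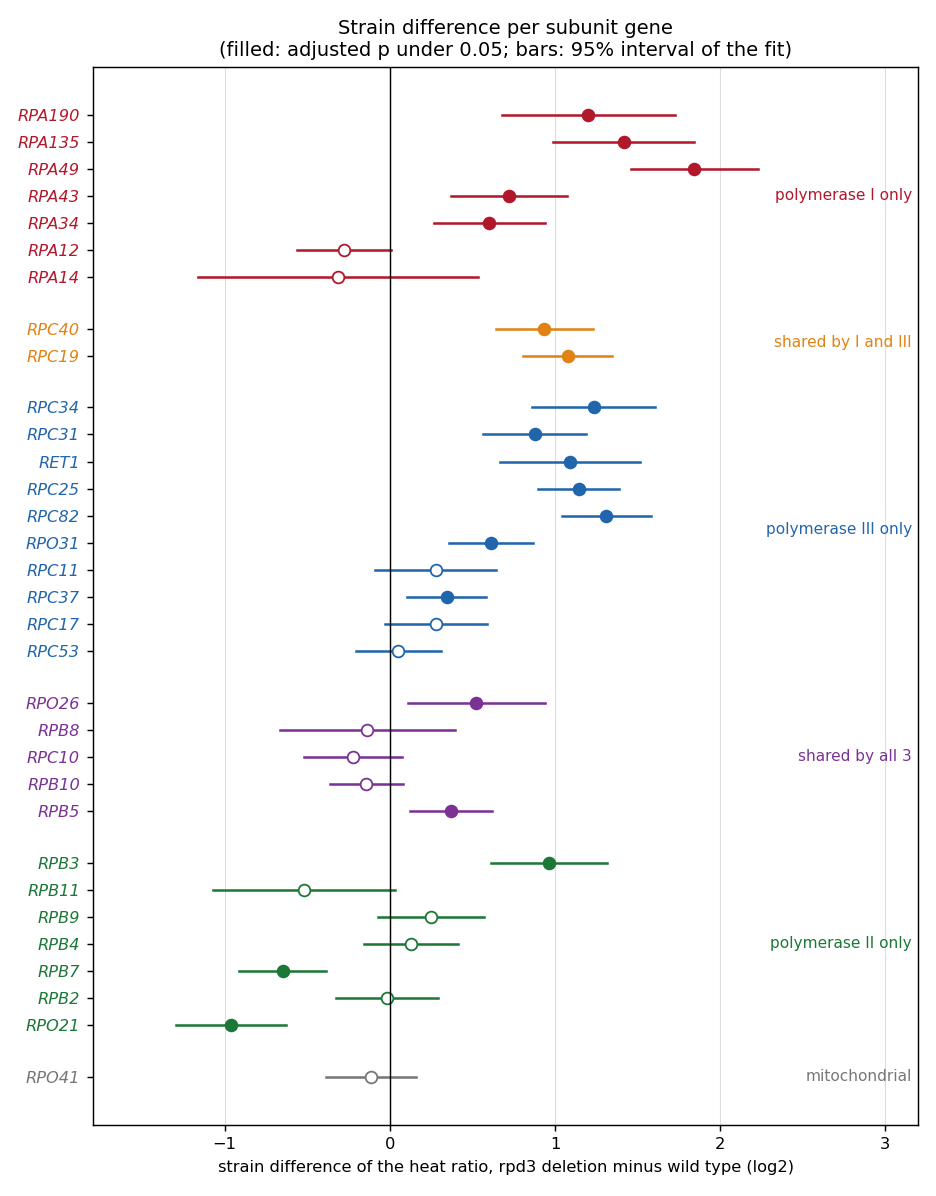
Strain difference of the log2 heat ratio (rpd3 deletion minus wild type) of each member, with the 95% interval of the limma fit; filled points have an adjusted p under 0.05. RPA49 lies highest at 1.84, and RPO21 at -0.96 and RPB7 at -0.65 are the only called genes below 0.

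The genes of polymerase II only did not move as a block. RPO21, the largest subunit, whose repeated tail carries the phosphorylation marks of the transcription cycle, had ratios of 0.28, 0.20 and -0.11 in wild type against -0.75, -0.75 and -1.02 in the mutant. All mutant arrays lay below all wild-type arrays. It did not pass the test in wild type (0.12 ± 0.20, SD, adjusted p = 0.317), fell 1.79-fold in the mutant (-0.84 ± 0.16, adjusted p = 0.000277), and differed by -0.96 ± 0.14 (SE, adjusted p = 0.00235), the 192nd lowest difference of all genes. RPB2, the second largest subunit and partner of RPO21 in the active centre, was not called in either strain. Its ratios were -0.20, -0.10 and 0.03 in wild type against -0.17, -0.26 and 0.11 in the mutant, and the 95% interval of its difference ran from -0.33 to 0.29. With the length trend removed RPB2 fell in the mutant (-0.29, adjusted p = 0.00798), and its difference was -0.23 (adjusted p = 0.096). The 7 spots of RPO21 differed by an SD of 0.035 on average over the arrays, and those of RPB2 by 0.174.

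The stalk and platform genes of polymerase II also parted. RPB7, the larger stalk subunit, had ratios of -0.14, -0.14 and -0.23 in wild type against -0.90, -0.65 and -0.92 in the mutant, without overlap (strain difference -0.65 ± 0.11, SE, adjusted p = 0.00402). RPB4, which pairs with RPB7 in the stalk, had -0.16, -0.49 and -0.22 in wild type against -0.24, -0.14 and -0.09 in the mutant, with overlapping arrays and a difference of 0.13 ± 0.12 (adjusted p = 0.407). So the 2 stalk genes had different ratios in the mutant, where every array of RPB7 lay below every array of RPB4. RPB3, the larger platform subunit, had ratios of -0.70, -1.04 and -0.84 in wild type against 0.04, -0.08 and 0.35 in the mutant. Its strain difference, 0.96 ± 0.15 (adjusted p = 0.00285), was the only one called higher among the 7 genes of polymerase II only. With arrays centred on the deleted marker genes, RPB4 (0.37, adjusted p = 0.0455) and RPB9 (0.49, adjusted p = 0.0218) were called higher too. Its platform partner RPB11 had -0.21, -0.33 and -0.96 in wild type against -1.07, -0.69 and -1.31 in the mutant, with a difference of -0.52 ± 0.24 that was not called (adjusted p = 0.105). Without wild-type array 3, RPB11 was called lower in the mutant (-0.75, adjusted p = 0.0251), as it was without mutant array 2 (-0.69, adjusted p = 0.0295), while its wild-type fall missed the threshold without wild-type array 2 (-0.59, adjusted p = 0.0618) or 3 (-0.27, adjusted p = 0.167). RPB9, the zinc-ribbon subunit, fell in wild type (-0.38 ± 0.095, SD; -0.32 and adjusted p = 0.0597 without wild-type array 3). The fall of RPB4 in wild type (-0.29 ± 0.18) missed the threshold without wild-type array 2 (-0.19, adjusted p = 0.119).

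The 5 genes shared by all 3 enzymes fell in wild type, and 4 of them fell in the mutant too. RPB8, a small subunit at the enzyme's surface, had ratios of -1.07, -0.85 and -1.64 in wild type against -1.33, -1.05 and -1.59 in the mutant. It was the lowest nuclear member of the mutant after RPA190, the groups overlapped, and the difference was -0.14 ± 0.23 (SE, adjusted p = 0.638; 95% interval -0.66 to 0.39). RPB10 and RPC10, small zinc-binding proteins of the assembly platform, had wild-type means of -0.51 ± 0.0046 and -0.77 ± 0.21 (SD) and mutant means of -0.65 ± 0.060 and -0.99 ± 0.058. Neither difference was called (95% intervals -0.36 to 0.08 and -0.52 to 0.08), though that of RPC10 was called with quantile normalization (-0.39, adjusted p = 0.036). With the length trend removed the differences turned, to 0.39 for RPB10 (adjusted p = 0.0357) and 0.31 for RPC10 (adjusted p = 0.0536). The RPB10 means include stray spots, at 0.32 on wild-type array 1 and at -1.52 and -1.73 on mutant arrays 1 and 3. Its median spots were -0.62, -0.47 and -0.50 in wild type against -0.61, -0.58 and -0.55 in the mutant. RPO26, which helps the largest subunit join the enzyme, had -1.53, -1.26 and -1.23 in wild type against -0.86, -1.11 and -0.48 in the mutant. RPB5, which forms the jaw that grips the DNA ahead of the enzyme, had -0.33, -0.50 and -0.31 in wild type against -0.08, -0.02 and 0.07 in the mutant, where it was not called.

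The 2 called differences among the genes shared by all 3 enzymes were near the threshold. That of RPO26 was 0.52 ± 0.18 (SE, adjusted p = 0.045); it missed the threshold without any of wild-type arrays 1 (0.43, adjusted p = 0.154), 2 (0.57, 0.0945) and 3 (0.58, 0.0648) or mutant arrays 1 (0.55, 0.107) and 3 (0.35, 0.0901). With quantile normalization it was 0.33 (adjusted p = 0.16). That of RPB5 was 0.37 ± 0.11 (adjusted p = 0.0255). It missed the threshold without wild-type arrays 1 (0.40, adjusted p = 0.0626) or 2 (0.31, 0.0882) and without mutant arrays 1 (0.41, 0.0723) or 3 (0.33, 0.0663).

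**Figure D3:**
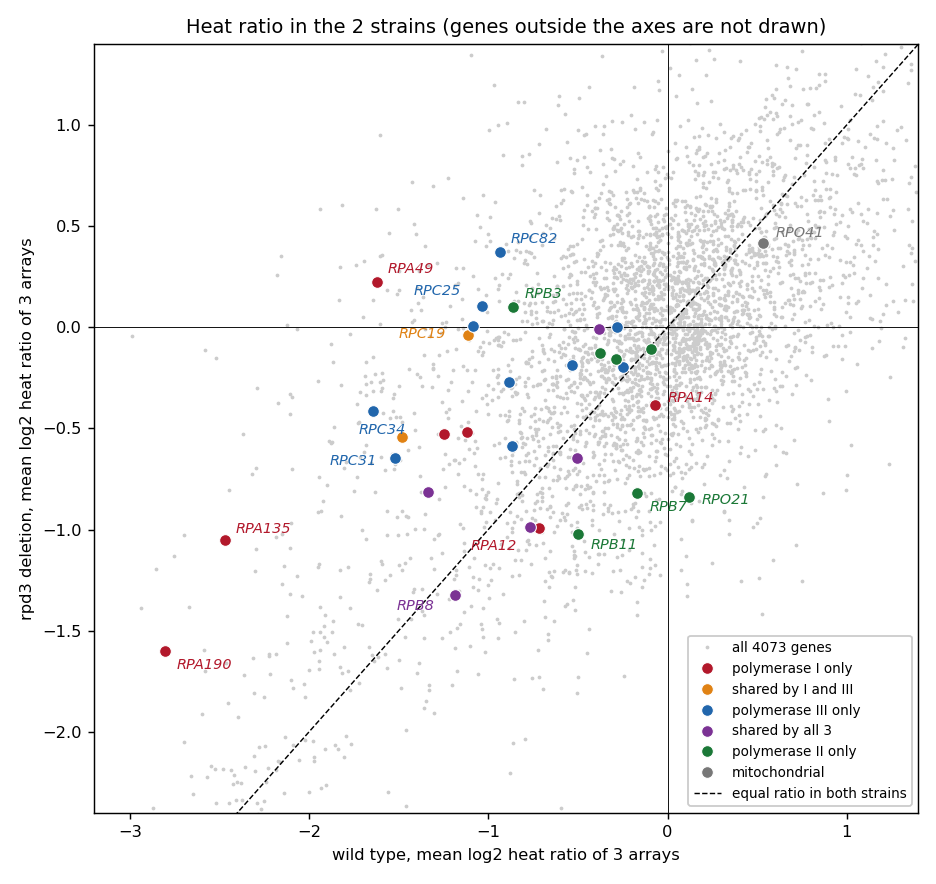
Mean log2 heat ratio of each gene in wild type (horizontal axis) against that in the rpd3 deletion (vertical axis), with all genes in grey and the members in colours by enzyme; the dashed line marks equal ratios. RPA49, RET1 and RPC25 lie far above the line at mutant values that were not called different from 0. RPC82 lies far above the line too, at a mutant value of 0.37, while RPO21 and RPB7 lie below the line.

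Subunits that hold the same position in different enzymes were compared array by array, in 17 pairs over 7 positions. On the largest subunit, RPA190 minus RPO21 was -3.01, -2.74 and -3.01 in wild type against -0.82, -1.25 and -0.21 in the mutant, so the polymerase I gene was lower on all 6 arrays and the gap was smaller in the mutant. RPA190 was also below RPO31 on all 6 arrays (means -1.92 ± 0.24 and -1.33 ± 0.28, SD, n = 3). RPO31 minus RPO21 was -1.22, -0.97 and -0.82 in wild type against 0.46, 0.38 and 0.86 in the mutant. Here the order of the polymerase III and polymerase II genes was opposite in the strains.

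At 2 other positions the order against the polymerase II gene was also opposite in the strains on all arrays. The first involves a gene of polymerase III only, the second RPC19, which polymerases I and III share. RPC25 minus RPB7, the larger stalk genes of polymerases III and II, was -0.87 ± 0.057 in wild type against 0.93 ± 0.25 in the mutant. RPC19 minus RPB11 of the platform was -0.61 ± 0.25 in wild type against 0.99 ± 0.25 in the mutant, while the other platform pair, RPC40 minus RPB3, stayed negative on all 6 arrays (-0.62 ± 0.19 and -0.65 ± 0.049). For the second largest subunit, RPA135 was below RPB2 (-2.38 ± 0.30 and -0.95 ± 0.11) and below RET1 (-1.38 ± 0.26 and -1.06 ± 0.082) on all arrays. At the zinc ribbon, RPA12 was below RPB9 on all 6 arrays, and the gap was wider in the mutant (-0.34 ± 0.11 and -0.86 ± 0.17). RPA43 was likewise below RPC25 on all arrays, with a gap of -0.21 ± 0.098 in wild type against -0.64 ± 0.16 in the mutant. The smaller stalk genes RPC17 and RPB4 had nearly equal ratios in wild type (0.0069 ± 0.016) and a gap of 0.16 ± 0.065 in the mutant. That mutant gap rests on averages of RPC17 spots that disagreed on mutant arrays 1 and 2. On mutant array 2 the median spot of RPC17 (-0.18) lay below that of RPB4 (-0.15). The sign of the gap on that array thus depends on the spot summary.

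Of these 17 pairs, 7 had the same sign on all 6 arrays, which gives p = 0.03125 in a two-sided exact sign-flip permutation test over arrays, the smallest that 6 arrays allow. After Benjamini-Hochberg adjustment over the 17 pairs the lowest p was 0.0759 (exact permutation test), so 0 pairs passed and 7 did before adjustment. With so few arrays, a pair could pass only if most of the 17 reached the smallest p. A pair whose order was opposite in the strains could not reach it. The adjusted test thus cannot decide about a single pair. In 12 pairs the strains did not overlap, a count that has no background here, since other gene pairs were not compared. Among single genes, the mutant arrays lay above all wild-type arrays for 31.1% and below them for 27.3%, and several pairs reuse a gene. A permutation of 3 arrays against 3 cannot go below 0.1, so the change of a gap between strains was given without a test.

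**Figure D4:**
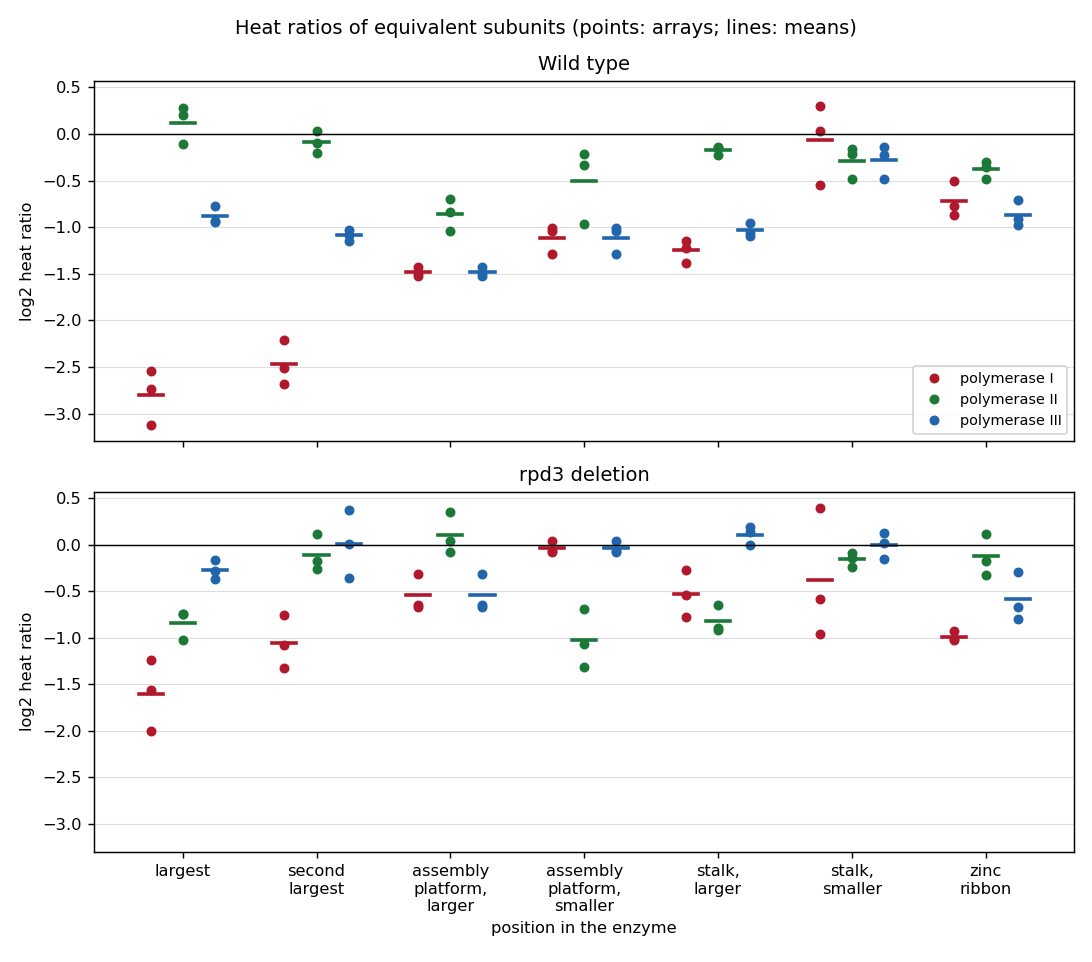
Log2 heat ratios of the subunits that hold the same position in polymerases I, II and III, in wild type (upper panel) and the rpd3 deletion (lower panel); points are arrays and lines are means of 3 arrays, and the shared platform genes RPC40 and RPC19 are drawn for both polymerases I and III. In wild type the polymerase II gene is the highest at each position but the smaller stalk, and in the mutant RPO21, RPB11 and RPB7 lie below their polymerase III counterparts.

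Over complete enzymes, with shared subunits counted in each, 13 of 14 genes of polymerase I, 17 of 17 of polymerase III and 9 of 12 of polymerase II fell in wild type. In the mutant 10 of 14, 9 of 17 and 7 of 12 fell. The median strain difference was 0.56 for polymerase I, 0.52 for polymerase III and -0.08 for polymerase II, against 0.02 for all genes. In 17 members the mutant arrays lay above all wild-type arrays, and in 4, RPA12, RPO21, RPB7 and RPB10, below them. Of all genes, 31.1% and 27.3% did so. For RPA34 among the 17 and RPB10 among the 4, the order rests on averages that include stray spots. Their median spots overlapped between the strains.

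Gene length varied widely among the members, from 213 bases for RPB10 and RPC10 to 5202 for RPO21, and short genes had lower mutant ratios in the whole table. Among the 31 nuclear genes the strain difference correlated with length with a Spearman rho of 0.485, and among the 4065 genes with a length with 0.170; these describe genes measured on the same arrays. Of the 18 nuclear genes of up to 855 bases, a length that 1017 of the 4065 genes do not exceed, 7 were higher in the mutant and 1, RPB7, was lower. Of the 13 longer ones 10 were higher and 1, RPO21, was lower. The shares of all genes called in these length classes are not given here. Over all genes the median difference was -0.12 up to 855 bases and 0.07 for longer genes. When a smooth trend with length was removed from each array, a step chosen after the data were seen, 21 members were higher in the mutant and 3 were lower, RPO21 at -1.22 (adjusted p = 0.00371), RPB7 at -0.46 (adjusted p = 0.00672) and RPO41 at -0.34 (adjusted p = 0.0323). RPA49 was then at 1.82 and RPA190 at 0.95. The share of all genes called after this step is not given here, so the counts of 21 and 3 have no background. The median difference of all genes was then 0.03. The part of length in these differences was not otherwise tested.

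**Figure D5:**
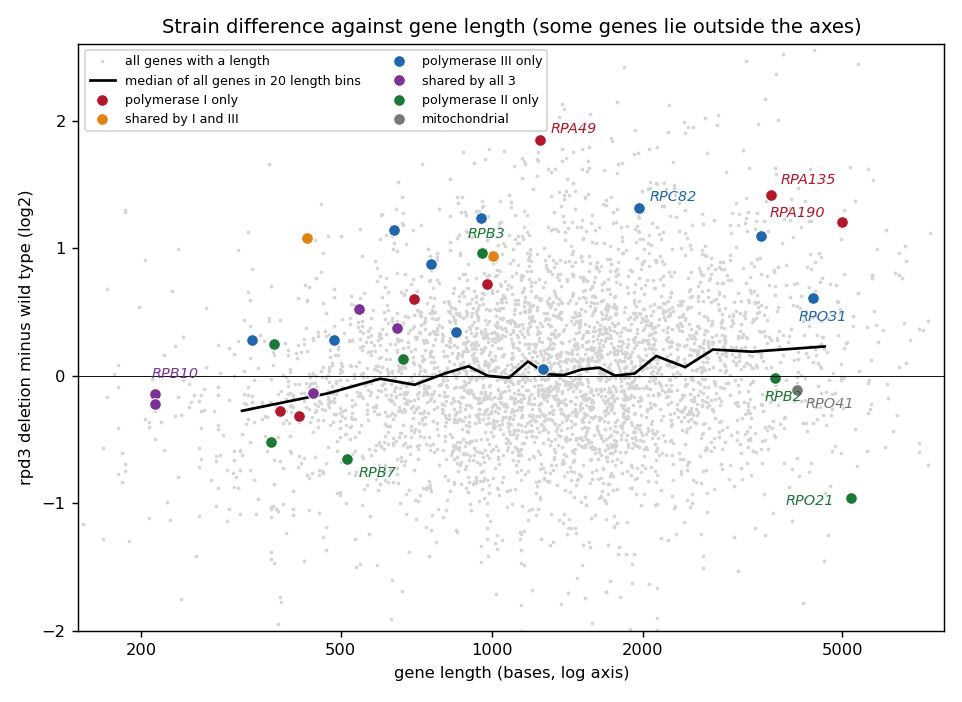
Strain difference of the log2 heat ratio against gene length on a log axis, with all genes in grey, their median in 20 length bins as a line, and the members in colours by enzyme. The line is below 0 for the shortest genes, where RPB10 and RPC10 also lie below 0, and RPO21 is far below the line among the longest genes.

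RPO41 had ratios of 0.41, 0.50 and 0.68 in wild type against 0.51, 0.30 and 0.44 in the mutant. It rose in both strains, 1.45-fold (adjusted p = 0.000837) and 1.34-fold (adjusted p = 0.00309), with overlapping arrays and a strain difference of -0.11 ± 0.12 (SE, adjusted p = 0.442). It thus differed in direction from the 27 nuclear genes that fell in wild type.

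The factors that bring each enzyme to its genes were taken from 3 further lists. Their counts stand beside shares over all genes of 36.3% that fell and 29.7% that rose in wild type, of 31.9% and 33.7% in the mutant, and of 24.8% higher and 21% lower for the strain difference. Of 11 measured polymerase I factors 3 fell and 0 rose in wild type, with a median of -0.15, and 4 fell and 2 rose in the mutant. HMO1, a high-mobility-group protein of ribosomal DNA and ribosomal protein genes, had the largest called difference of these, from -0.17 ± 0.24 (SD) in wild type to -1.36 ± 0.11 in the mutant (difference -1.19 ± 0.14, SE, adjusted p = 0.00112). FOB1, the replication fork barrier protein of ribosomal DNA, had the lowest ratio in wild type (-0.56 ± 0.14), and UAF30, a subunit of the upstream activating factor, the highest of those called (-0.37 ± 0.12). The strain difference was called higher for 3 of the 11 and lower for 1.

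Of 12 polymerase III factors 5 fell and 1 rose in wild type (median -0.19), and 1 fell and 5 rose in the mutant (median 0.14); the 5 that fell and the 5 that rose are close to the shares over all genes. BRF1, a subunit of TFIIIB and the factor that RPC34 binds, fell in wild type (-0.81 ± 0.32, SD) and rose in the mutant (0.84 ± 0.31), a difference of 1.66 ± 0.21 (SE, adjusted p = 0.00134). NHP6B, a high-mobility-group protein, was the gene that rose in wild type (0.95 ± 0.28, SD). It differed by -1.05 ± 0.27 (adjusted p = 0.0165). The difference was higher for 4 of the 12 and lower for 2.

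Of 25 general and elongation factors of polymerase II 15 fell and 2 rose in wild type (median -0.36), and 7 fell and 7 rose in the mutant (median 0.12), with 11 higher and 2 lower for the strain difference. SPT15, the TATA-binding protein that all 3 enzymes use, fell in wild type (-0.68 ± 0.25, SD) and rose in the mutant (0.50 ± 0.32), a difference of 1.18 ± 0.20 (SE, adjusted p = 0.00342). TAF14 had the lowest wild-type ratio (-0.74 ± 0.091, SD) and SSL2, a helicase of TFIIH, the highest of those called (0.36 ± 0.087). Of 8 assembly factors of the polymerases, 2 were measured, and BUD27 had the larger called difference (1.00 ± 0.21, SE, adjusted p = 0.00873). Its spots disagreed on wild-type array 1 (SD 0.95) and mutant array 1 (SD 0.34), against SDs of 0.058 to 0.078 on the other arrays. Its wild-type ratios were -0.03, -0.72 and -0.22.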

How the data were processed

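Per the labels' protocols, 500 ng of RNA per sample was labelled with Cy3 or Cy5 by linear amplification. The deposited table holds log2 ratios of both channels for 45220 spots. No source used here states their log base, sign or normalization; base 2 was taken from their range and because limma is named (no version) per the submitters' processing notes. GEO's platform annotation gave 28532 spots 1 gene symbol each, and RefSeq's genes of assembly R64 served to update 125 older symbols and gave gene lengths. Spots were averaged per gene and array. For arrays, their number limits the precision.

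All 6 arrays entered 1 limma 3.58.1 fit (R 4.3.3) over 4073 genes with 1 mean for each strain and no further term. Contrasts were each strain against 0 and their difference, with Benjamini-Hochberg adjustment over all genes and a threshold of 0.05; the fit was tested on simulated data. The errors are SDs over 3 arrays or standard errors of the fit. Members, classes, pairs and lists were chosen with earlier results of these data known. Every member is named; from each factor list, the lowest and highest called gene in wild type and the largest called strain difference. The planned count of promoter motifs was not run, since no sequences were used here. Alternatives left out arrays or changed centring, scaling, spot summary, filters, variance estimate, block and length trend.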

Additional observations from a re-analysis of the deposited data

Results flagged for a closer look

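The heat ratio differed between the strains, by limma's test of the difference itself, for 19 members. Among genes of polymerase I only, the mutant was higher by 1.20 for RPA190, 1.42 for RPA135, 1.84 for RPA49, 0.72 for RPA43 and 0.60 for RPA34 on the log2 scale. Of the genes shared by polymerases I and III, RPC40 was higher by 0.94 and RPC19 by 1.08. Of those of polymerase III only, RPO31 was higher by 0.61, RET1 by 1.09, RPC82 by 1.31, RPC37 by 0.34, RPC34 by 1.23, RPC31 by 0.88 and RPC25 by 1.14. RPO26 and RPB5, shared by all 3 enzymes, were higher by 0.52 and 0.37. Of polymerase II only, RPB3 was higher by 0.96, while RPO21 (-0.96) and RPB7 (-0.65) were lower. By spot averages the strains did not overlap for any of the 19. Over all genes, 31.1% had the mutant higher and 27.3% had it lower without overlap. For RPA34 the median spots did overlap: that of mutant array 2 (-1.06) lay below that of wild-type array 3 (-1.04).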

How the results depend on the processing

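Of 96 results, 32 members in 3 contrasts, 63 kept their side of the threshold under all alternatives that gave a value. Shares of all genes called are given for the main fit only, so the counts of members under the alternatives have no background beside them. Each array left out in turn moved the count of members lower in the mutant from 2 to a range of 2 to 4, and quantile normalization moved it to 4. The count of members that rose in the mutant was 1 in place of 2 without the genes with the widest spread between spots, which kept 3055 genes and 23 of the 32 members, and 6 with the length trend removed. That step also turned 5 values that were called with or without it: in the mutant RPB9 went to 0.28, RPC17 to 0.30, RPC19 to 0.31 and RPB10 to 0.000215, and the difference of RPB10 to 0.39. With arrays centred on the deleted marker genes, which moved the median difference of all genes from 0.02 to 0.26, the median strain difference became 0.96 for polymerase I only, 0.22 for II only, 0.98 for III only, 1.25 for those shared by I and III and 0.10 for those shared by all 3, and 21 members were higher and 2 lower. With quantile normalization the first 4 were 0.57, -0.077, 0.60 and 0.86. Without the widest spots the medians were 0.96 for I only, -0.52 for II only, 0.88 for III only and 0.12 for those shared by all 3. With the length trend removed they were -0.20 for II only, 1.14 for I and III and 0.39 for all 3. For II only, centring on array medians gave -0.068 and median spots 0.068. Leaving out 1 array gave 0.59 to 0.84 for I only, -0.13 to 0.057 for II only and 0.67 to 0.82 for III only. The sign of the medians for II only and for those shared by all 3 thus depends on the processing, while RPO21 and RPB7 were called lower in the mutant under every alternative that gave a difference; a fit of each strain alone gives none. The count of promoter motifs and its alternatives were not run. The cause of these shifts was not tested beyond what each step does by construction.

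With the replicate number as a replicate block, 17 members were higher in the mutant and 3 lower, the third being RPB11 (-0.52, adjusted p = 0.0208), and 19 fell in the mutant, RPA14 (-0.39, adjusted p = 0.0198) and RPC53 (-0.20, adjusted p = 0.0442) among them. Shares of all genes are not given for this fit either. Deviations of same-numbered arrays correlated across genes with r = -0.22, 0.21 and 0.42, so the numbers were not taken to pair the arrays. No signal over background was analysed here, so dim spots could not be judged.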

Other observations

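Spots of a member disagreed more often on the mutant arrays. A spot more than 0.5 from the median spot of its gene occurred on at least 1 mutant array for 7 members and on at least 1 wild-type array for 3. Over all named spots, 97 were this far off on all 3 mutant arrays and 3 spots on all 3 wild-type arrays. The mean SD between the 7 spots of a member ranged from 0.034 to 0.486 with a median of 0.052, and RPA34 had the highest.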
